A study of Sus scrofa with 16 samples.

Results

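The proliferating satellite cells (SCs) of piglets with Duchenne muscular dystrophy (DMD) were compared with the differentiated SCs of wild-type (WT) piglets, gene by gene. The aim was to see which muscle genes in proliferating DMD cultures already stood at the level of differentiated WT cultures and which did not. By their labels, 4 samples are DMD and proliferating (DMD PROL) and 4 are WT and differentiated (WT DIFF), 8 of the 16 samples of the series. The 4 WT PROL and 4 DMD DIFF samples are given beside them where they place a level. All are myogenic SCs from the intercostal muscle of male piglets aged 3 days at passage 6, depleted of CD31 and CD45 cells and then selected on integrin β1, NCAM1 and M-cadherin. PROL cells grew in Ham's F10 medium with 20% fetal bovine serum and basic fibroblast growth factor, and DIFF cells were kept in Ham's F10 medium with 5% horse serum, for 10 days according to the sequencing methods and 7 days according to the culture methods. The DMD pigs carry a deletion of an exon of *DMD*, and the WT piglets are the healthy controls. The 8 samples come from 8 animals, so that no DMD PROL sample shares an animal with a WT DIFF sample. Genotype, medium and state of the cells all differ between both groups, and their parts in any difference cannot be told apart. RNA was taken from whole cultures, in which fewer cells of a type and less RNA per cell cannot be told apart either.

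SCs are the stem cells of skeletal muscle. In growth medium they divide as myoblasts under *MYF5* and *MYOD1*, and when serum is reduced they leave the cell cycle, switch on *MYOG* and *MEF2C*, fuse into myotubes and build sarcomeres from thick filaments of myosin and thin filaments of actin, tropomyosin and troponin. Division and sarcomere building are normally successive steps of this program. Dystrophin, the product of *DMD*, links the actin cytoskeleton to sarcoglycans and dystroglycan in the membrane and is made mainly in fibers.

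Counts per library were alike in both groups, 1477772 to 1664700 in DMD PROL and 1572180 to 1762968 in WT DIFF, after the 2 technical duplicates of each sample were added. One library stood apart: the 18S ribosomal RNA gene *RN18S* took 20.4% of the counts in DMD PROL replicate 4, against 7.63% to 8.66% in the other 3 DMD PROL libraries and 7.40% to 10.1% in WT DIFF, and its normalization factor was 0.915 against 1.05 to 1.06. This library was also the lowest of the 4 DMD PROL libraries for 27 of the 62 muscle genes tested, against 10 to 14 for each of the others. Its part in the results was not tested beyond leaving it out. Markers named for the isolation were seen in part: *DES* (desmin) and *ITGB1* (integrin β1) were well expressed in both groups, and *MYOD1* and *MYF5* had few counts. *PAX7*, *NCAM1*, *CDH15* and *ITGA7* were not among the genes counted, so these markers could not be checked here. Fibroblast markers were abundant and lower in DMD PROL, and their sum over 9 genes ran from 4147 to 4656 CPM (counts scaled to library size) in DMD PROL against 21917 to 24980.3 in WT DIFF. The sums of endothelial markers were 15.9 to 34.1 against 77.9 to 121 CPM over 5 genes and those of blood markers 25.7 to 39.9 against 48.2 to 67.0 CPM over 8 genes, of which 3 had no count. These sums move with the groups, and the part of cell makeup in the differences below was not tested.

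Transcripts of *DMD* itself were few. The 4 DMD PROL libraries held 24, 28, 32 and 30 counts and the 4 WT DIFF libraries 12, 22, 18 and 18, or 14.7, 17.9, 18.8 and 19.7 against 8.20, 16.1, 11.6 and 12.1 CPM. The groups overlapped, with a log2 fold change of 0.54 (adjusted *p* = 0.161) in edgeR's quasi-likelihood test. The 95% interval from limma-voom, −0.09 to 1.23, reached past 2-fold, so the difference is undecided. The libraries tag the 3′ ends of transcripts, so these reads do not show the deleted exon and do not check the genotype. In WT PROL the level was 4.00 and in DMD DIFF 27.2 CPM.

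Across all 1926 genes with enough counts to test, 797 (41.4%) were called different between DMD PROL and WT DIFF, 356 (18.5%) higher and 441 (22.9%) lower in DMD PROL. A gene was called when its Benjamini-Hochberg adjusted *p* in edgeR was under 0.05 and its absolute log2 fold change over 0.6. A gene that was not called was taken to match within 2-fold when the 95% interval of its log2 difference, from limma-voom, lay between −1 and 1, and was undecided otherwise. By these rules 856 genes (44.4%) matched within 2-fold and 273 (14.2%) were undecided. Of the 797 calls, 506 exceeded 2-fold. In 981 genes (50.9%) the 4 libraries of one group all lay above the 4 of the other. The median log2 fold change over all genes was −0.04. Scaling by library size alone, without the composition factor, shifted that median to 0.18 and turned the split of calls from 356 higher and 441 lower to 505 higher and 326 lower, so that directions are relative to the main scaling. All fold changes are DMD PROL over WT DIFF from edgeR, levels are CPM (mean ± SD, n = 4 animals, or the single libraries in order of replicate 1 to 4), and intervals come from limma-voom.

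**Figure D1:**
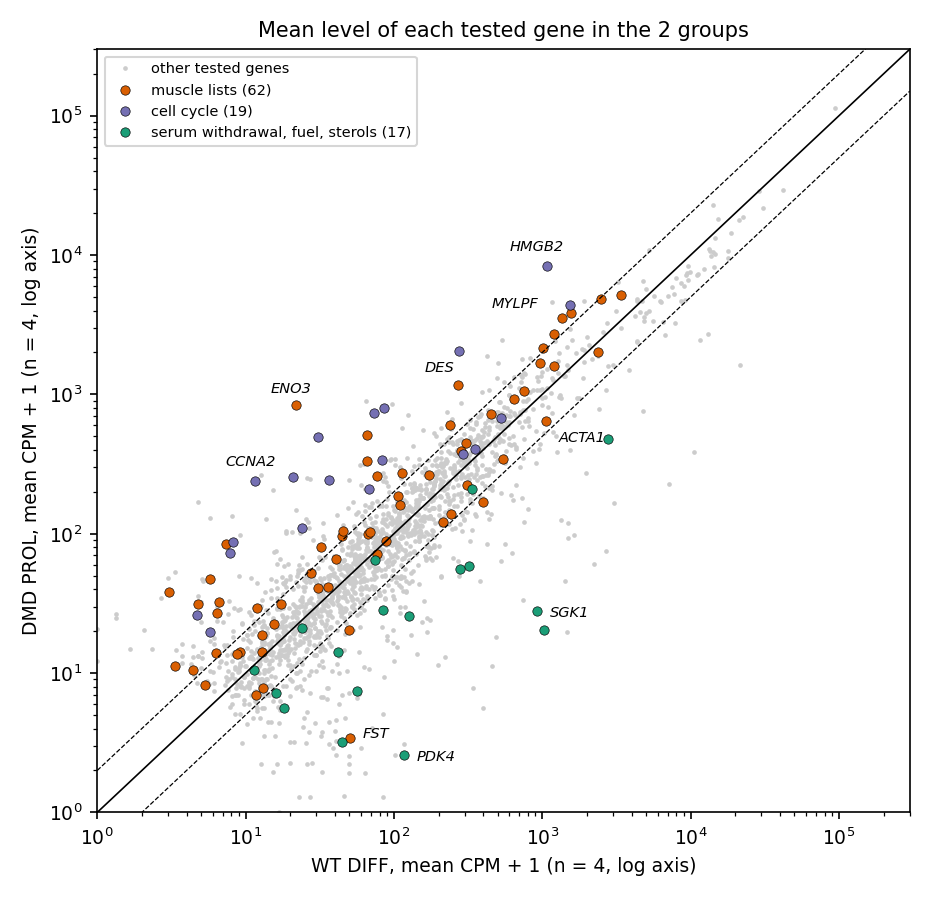
Mean CPM plus 1 of each of the 1926 tested genes in WT DIFF (horizontal, log axis) and DMD PROL (vertical, log axis), n = 4 libraries each, with the line of equal levels and dashed lines at 2-fold. Orange points are the 62 muscle genes, most of them on or above the line of equal levels, purple the 19 cell cycle genes, most of them far above it, and green the 17 serum withdrawal, fuel and sterol genes, nearly all below it.

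Muscle genes were taken from 7 lists of sarcomere, Z-disc, regulator, excitation, membrane and metabolic genes. Of 204 listed, 100 were in the count table, 3 of them without a count, 35 were below the filter on low counts and 62 were tested. Of the 62, 30 were called higher in DMD PROL than in WT DIFF, 13 matched within 2-fold, 14 were undecided and 5 were called lower. In the same order, the shares over all 1926 genes tested were 18.5%, 44.4%, 14.2% and 22.9%. In 31 all 4 DMD PROL libraries lay above all 4 WT DIFF libraries, in 6 all below (24.9% and 26.1% of all genes tested). The median log2 fold change of the 62 was 0.68, beside −0.04 over all genes. Without DMD PROL replicate 4, 34 muscle genes were called higher, 6 lower and 12 matched. Summed over the 100 genes, a DMD PROL library held 35659.6 to 41776 CPM and a WT DIFF library 20089 to 24949. A WT PROL library held 19827 to 25060 CPM, so this sum did not separate differentiated from proliferating WT SCs. Of the 30 genes called higher, 19 had a WT DIFF mean above their WT PROL mean. For the rest, the WT DIFF level was not one raised by differentiation. WT SCs themselves changed on differentiation, with 618 of 1921 genes (32.2%) called between WT DIFF and WT PROL, and DMD PROL differed from WT PROL in 349 of 1914 (18.2%). WT DIFF and WT PROL samples of the same number come from the same animal, and with the animal as a block 640 genes were called between them. Both of these comparisons share libraries with the one described here, so their fold changes are only set beside it.

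**Figure D2:**
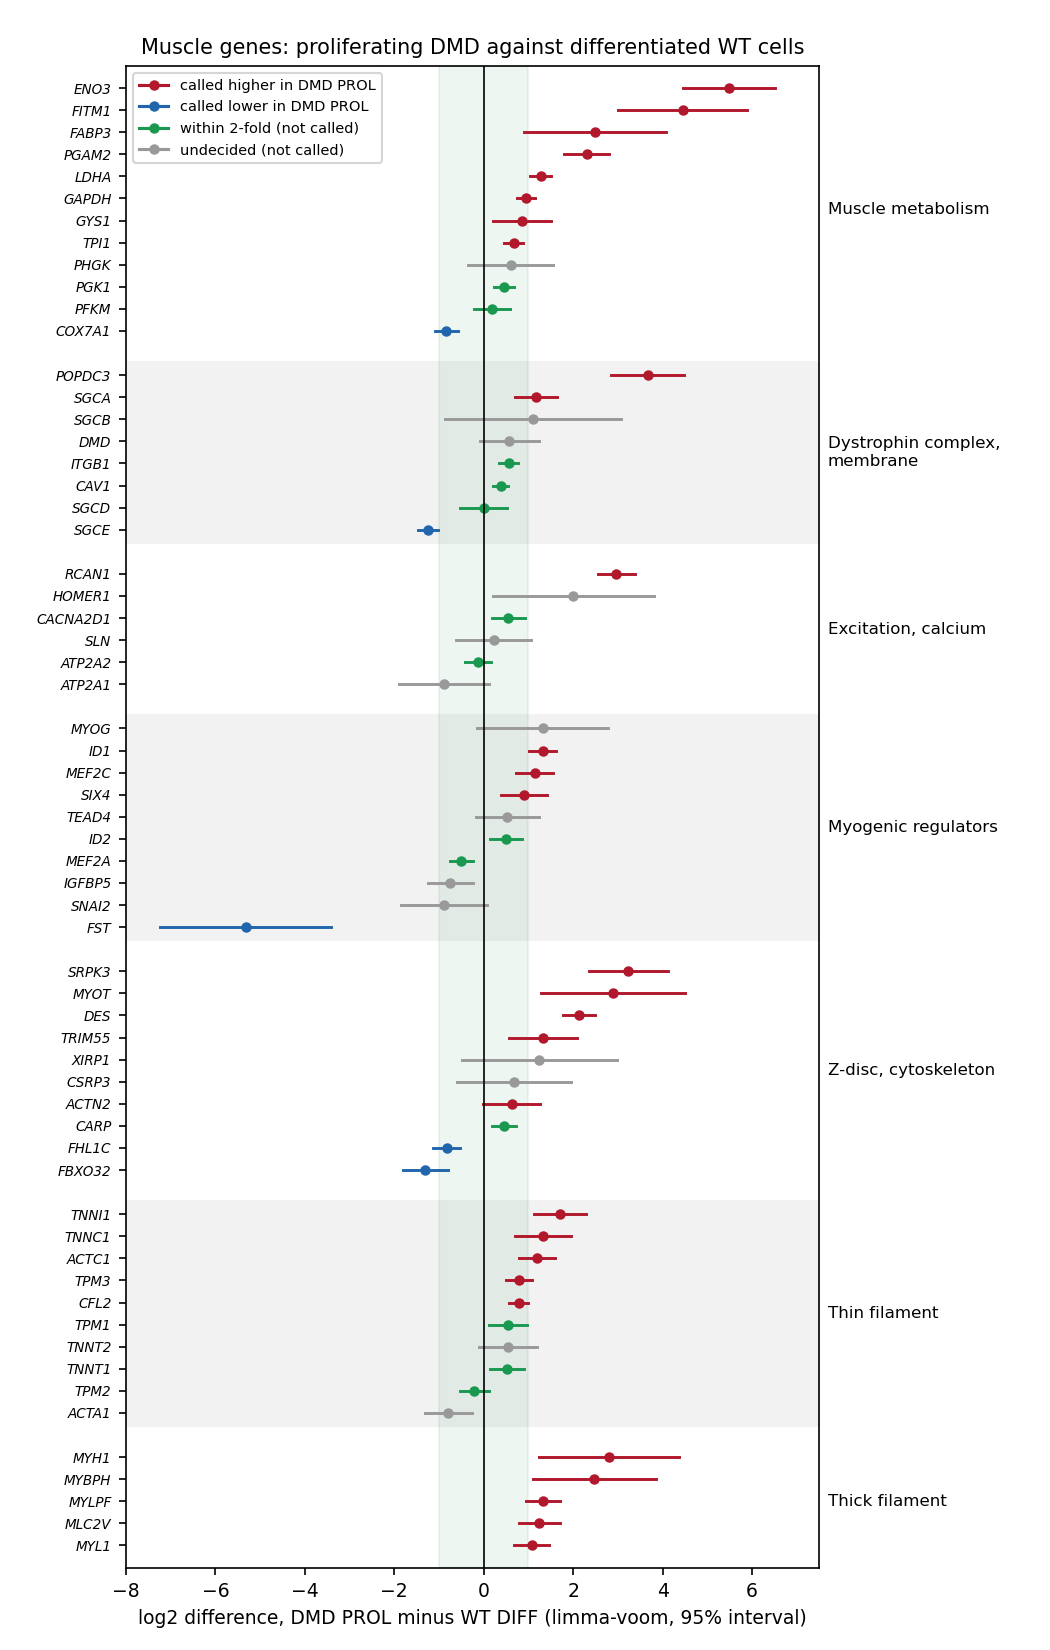
Log2 difference between DMD PROL and WT DIFF (horizontal axis, point and 95% interval from limma-voom, 4 against 4 libraries) for 61 of the 62 tested muscle genes, grouped by list, with the band of 2-fold shaded. Red genes (29) were called higher in DMD PROL, blue (5) lower, green (13) matched within 2-fold and grey (14) were undecided, and all 5 thick filament genes are red.

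The thick filament genes that could be tested passed the differentiated WT level. Of 25 listed, 11 were in the count table, 1 of them without a count and 5 below the filter. All 5 tested were called higher, as were 18.5% of all genes tested, with a median log2 fold change of 1.34. *MYLPF*, the regulatory light chain of fast skeletal myosin, stood at 3451, 4282, 4059 and 2317 CPM in the 4 DMD PROL libraries and at 1373, 991, 1451 and 1653 in WT DIFF. Every DMD PROL library was above every WT DIFF library, replicate 4 least, and the difference was 2.54-fold, a log2 fold change of 1.34 (95% interval 0.95 to 1.72, adjusted *p* = 0.00102). In WT PROL the mean was 112 and in DMD DIFF 7894 CPM, so DMD PROL lay between both differentiated groups. *MYL1*, an alkali light chain of fast myosin, followed with 2304, 2604, 2194 and 1489 against 931, 729, 1025 and 1356 CPM, a log2 fold change of 1.06 (95% interval 0.68 to 1.46, adjusted *p* = 0.00433). Its groups did not overlap, but replicate 4 of DMD PROL came close to replicate 4 of WT DIFF. *MLC2V*, the file's name for *MYL2*, the light chain of slow and ventricular myosin, showed 273 ± 73.7 against 112 ± 16.1 CPM (log2 fold change 1.27, adjusted *p* = 1.5e-04). The heavy chain *MYH1* rose from 3.74 ± 1.27 to 30.6 ± 13.6 CPM (log2 fold change 2.98, adjusted *p* = 2.8e-05) and the myosin-binding protein *MYBPH* from 5.67 ± 4.15 to 31.6 ± 13.3 (log2 fold change 2.42, adjusted *p* = 3.2e-04). Both heavy chain and binding protein lay below 50 CPM in every library of both groups. *MYH1* shares sequence with near-identical heavy chain genes, so its reads may be split among them.

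Thin filament genes were divided between those called higher than in WT DIFF and those not called. Of 10 tested, 5 were called higher, 3 matched, 2 were undecided and none was called lower. The shares over all genes tested were 18.5%, 44.4%, 14.2% and 22.9%. *ACTC1*, cardiac α-actin, which is also the main sarcomeric actin of young muscle, stood at 2796, 3004, 3055 and 2020.2 CPM in DMD PROL and 1026, 833, 1203 and 1753 in WT DIFF, without overlap and with a log2 fold change of 1.15 (95% interval 0.79 to 1.59, adjusted *p* = 0.00503). Skeletal α-actin *ACTA1*, which takes over in mature fibers, did not follow it. It stood at 691, 829, 729 and 318 CPM in DMD PROL and at 1213, 706, 1089 and 1213 in WT DIFF, where 2 DMD PROL libraries lay above the lowest WT DIFF library and 2 below all of them, replicate 4 by the most. The log2 fold change was −0.74 (95% interval −1.32 to −0.26, adjusted *p* = 0.0907), undecided, and in a fit over all 16 libraries it was called lower (log2 fold change −0.74, adjusted *p* = 0.0281). Without replicate 4 it matched within 2-fold. Both actins rose from WT PROL to WT DIFF, *ACTC1* from 138 to 1204 CPM and *ACTA1* from 44.7 to 1055. Actin coding sequences are nearly identical, but 3′ tags fall largely outside them; how many reads the 2 genes share was not examined.

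Troponin subunits were divided in the same way. *TNNI1*, the inhibitory subunit of slow fibers, stood at 263, 299.7, 320.4 and 144 CPM in DMD PROL against 79.3, 51.2, 72.2 and 102 in WT DIFF, a log2 fold change of 1.73 (95% interval 1.12 to 2.29, adjusted *p* = 6.0e-04). All DMD PROL libraries were higher. *TNNC1*, the calcium-binding subunit, was 78.9 ± 20.2 against 31.3 ± 10.9 CPM (log2 fold change 1.30, adjusted *p* = 5.5e-04). *TNNT1*, the tropomyosin-binding subunit of slow fibers, matched: its DMD PROL libraries held 397, 444, 602 and 332 CPM and its WT DIFF libraries 327, 234, 258 and 399, with a log2 fold change of 0.52 (95% interval 0.13 to 0.91, adjusted *p* = 0.0719). The groups overlapped, and DMD PROL replicate 4 was again the lowest of its group. Leaving that library out gave a call of 0.63 (adjusted *p* = 0.0279), and leaving out WT DIFF replicate 4 one of 0.68 (adjusted *p* = 0.0120). In WT PROL *TNNT1* was at 22.2 CPM, so the DMD PROL mean of 444 matched WT DIFF within 2-fold and lay far above WT PROL. *TNNT2*, the cardiac and embryonic form, was undecided at 98.9 ± 38.7 against 65.6 ± 21.7 CPM (log2 fold change 0.57, 95% interval −0.10 to 1.19). It was called higher without DMD PROL replicate 4 (0.76, adjusted *p* = 0.0256).

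Among tropomyosins, which wind along actin and are also made outside muscle, *TPM2* (β-tropomyosin) matched with 2029 ± 175 against 2379 ± 705 CPM (log2 fold change −0.25, 95% interval −0.54 to 0.11) and *TPM1* with 927 ± 184 against 642 ± 216 (log2 fold change 0.51, 95% interval 0.13 to 0.97). Neither was called between WT DIFF and WT PROL, where *TPM2* was at 2266 and *TPM1* at 505 CPM, so a match in these genes does not separate cycling from differentiated WT cells. *TPM1* became undecided when any of 4 libraries was left out. *TPM3*, the slow and cytoskeletal form, was 185 ± 17.7 against 106 ± 17.4 CPM (log2 fold change 0.79, adjusted *p* = 1.1e-04), and was lower in WT DIFF than in WT PROL (215 CPM). The actin-severing cofilin *CFL2* was 1680.2 ± 15.2 against 971 ± 168 CPM (log2 fold change 0.77, adjusted *p* = 6.8e-06), with a spread among DMD PROL libraries of only 1666 to 1693 CPM.

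Z-disc and cytoskeletal genes lay on both sides of the WT DIFF level. Of 10 tested, 5 were called higher, 2 lower, 1 matched and 2 were undecided. Among all genes tested, 18.5% were called higher, 22.9% lower, 44.4% matched and 14.2% were undecided, so the count called lower was near that share. *DES*, the muscle intermediate filament protein and a marker of myogenic cells, stood at 1406, 1116, 938 and 1233 CPM in DMD PROL and 252, 222, 219 and 380.2 in WT DIFF. All DMD PROL libraries were more than 2-fold above the highest WT DIFF library, with a log2 fold change of 2.11 (95% interval 1.77 to 2.48, adjusted *p* = 2.6e-05). WT PROL had 71.1 and DMD DIFF 2058 CPM. *SRPK3*, a muscle kinase under *MEF2* control, was at 53.9, 43.5, 39.9 and 48.6 against 2.73, 5.85, 6.45 and 4.03 CPM, 9.46-fold higher (a log2 fold change of 3.24 (95% interval 2.35 to 4.11, adjusted *p* = 1.3e-07)). *MYOT* (myotilin) was at 30.6, 25.6, 30.5 and 17.1 against 0, 5.85, 6.45 and 9.40 CPM (log2 fold change 2.22, adjusted *p* = 0.00150) and the titin-binding ubiquitin ligase *TRIM55* 28.2 ± 8.28 against 10.9 ± 3.73 (log2 fold change 1.34, adjusted *p* = 0.00221). Neither overlapped between groups. *ACTN2*, the muscle α-actinin that anchors thin filaments, was near the threshold: 67.4, 75.6, 85.7 and 31.5 against 34.2, 30.7, 45.1 and 48.4 CPM, a log2 fold change of 0.69 (95% interval −0.01 to 1.27, adjusted *p* = 0.0377). The groups overlapped through replicate 4 of DMD PROL, and the call was lost when any of 6 libraries was left out, at edgeR adjusted *p* of 0.0550 to 0.126.

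*CARP*, the file's name for *ANKRD1*, a stress-responsive ankyrin repeat protein that binds titin, matched. It stood at 370.0, 409.9, 434 and 349 CPM in DMD PROL and 273, 246, 246 and 371 in WT DIFF, a log2 fold change of 0.44 (95% interval 0.18 to 0.73, adjusted *p* = 0.00851), while WT PROL held 22.0 and DMD DIFF 2441 CPM. WT DIFF replicate 4 lay within the DMD PROL range. Lower than in WT DIFF were *FBXO32*, the ubiquitin ligase atrogin-1 of muscle breakdown, and *FHL1C*, the file's name for the LIM-domain gene *FHL1*. *FBXO32* stood at 19.6, 19.2, 22.3 and 17.1 against 65.6, 42.4, 41.3 and 45.7 CPM without overlap, a log2 fold change of −1.33 (95% interval −1.80 to −0.80, adjusted *p* = 1.1e-04). *FHL1C* was 121 ± 17.3 against 212 ± 30.2 CPM (log2 fold change −0.83, adjusted *p* = 6.4e-05), close to its WT PROL level of 139. *CSRP3* and *XIRP1*, a LIM protein and an actin-binding protein of striated muscle, were undecided at means under 15 CPM in both groups.

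**Figure D3:**
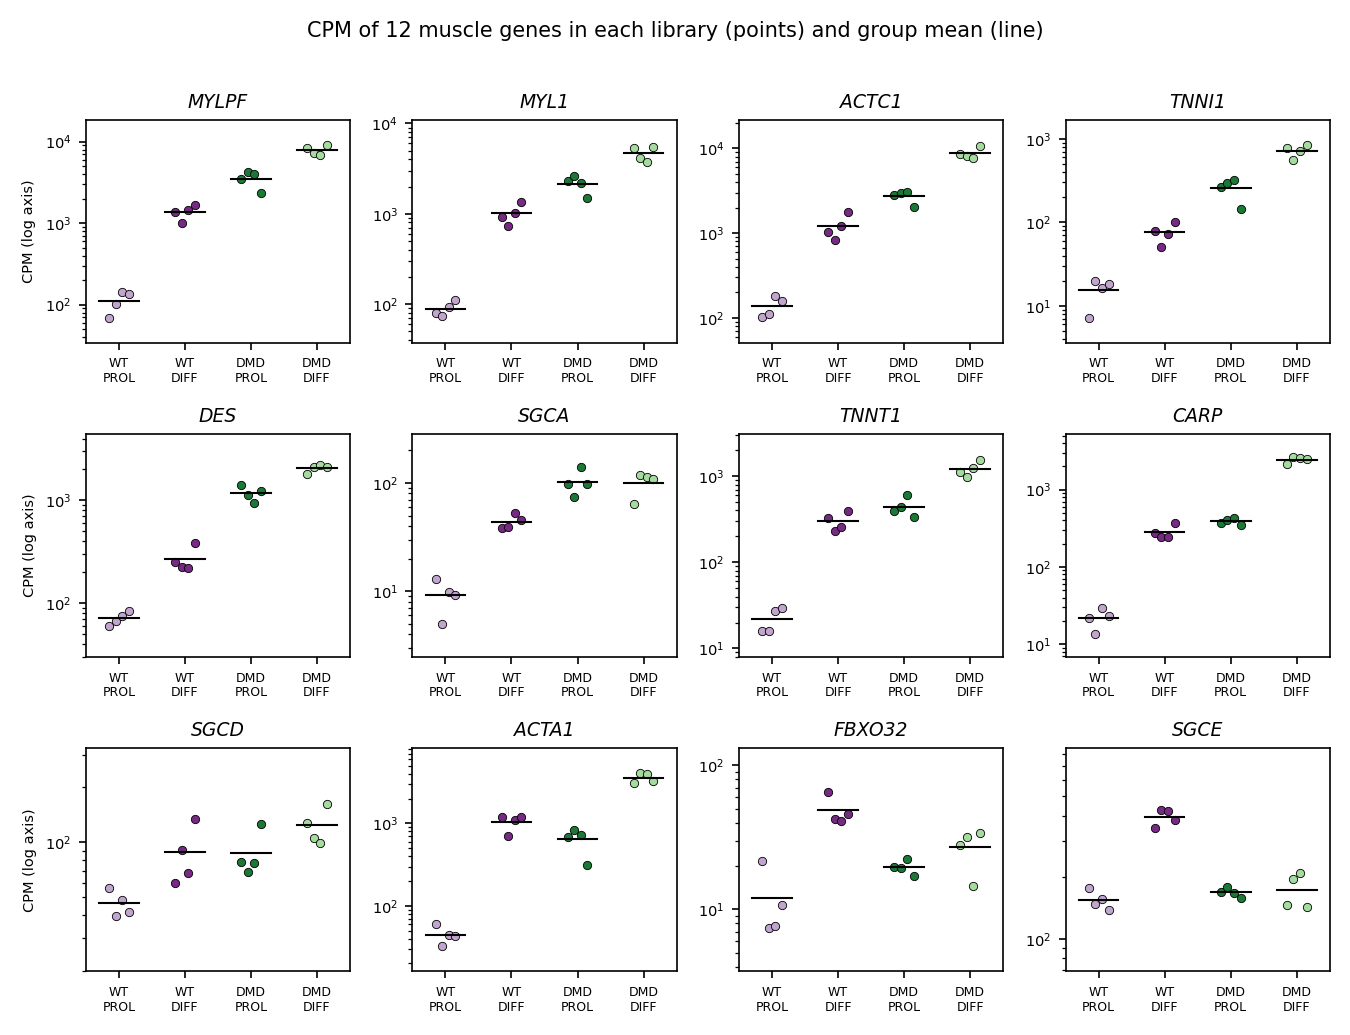
CPM (log axis) of 12 muscle genes in each of the 16 libraries (points) with the group mean (line), in the order WT PROL, WT DIFF, DMD PROL and DMD DIFF. The first 6 genes lie higher in DMD PROL than in WT DIFF, *TNNT1*, *CARP* and *SGCD* matched within 2-fold, *ACTA1* was undecided, and *FBXO32* and *SGCE* lie lower in DMD PROL.

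Of the myogenic regulators, 4 of 11 tested were called higher, 1 lower, 2 matched and 4 were undecided. The shares over all genes tested were 18.5%, 22.9%, 44.4% and 14.2%. *MEF2C*, a factor that drives sarcomere genes with *MYOG*, stood at 82.1, 99.9, 104 and 93.2 CPM in DMD PROL and 43.8, 42.4, 29.7 and 57.8 in WT DIFF, without overlap (a log2 fold change of 1.11 (95% interval 0.73 to 1.55, adjusted *p* = 9.4e-05)). It was at 8.41 CPM in WT PROL and 131 in DMD DIFF. *ID1*, which restrains myogenic factors and falls as cells stop cycling, was also higher: 709, 646, 492 and 551 against 186, 270.4, 258 and 234 CPM, a log2 fold change of 1.32 (95% interval 1.01 to 1.62, adjusted *p* = 1.2e-06). A gene of differentiation and an inhibitor of it thus both stood above the WT DIFF level, *ID1* being lower in WT DIFF than in WT PROL (779 CPM) and *MEF2C* higher. The homeobox gene of muscle precursors *SIX4* was 51.2 ± 12.1 against 26.5 ± 5.12 CPM (log2 fold change 0.92, adjusted *p* = 0.00320). Its call was lost on the first duplicate of each sample alone (0.72, edgeR adjusted *p* = 0.0786).

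*MYOG* itself, the factor of terminal differentiation, was too low to decide, at 12.8 ± 6.86 against 5.35 ± 4.39 CPM (log2 fold change 1.22, 95% interval −0.14 to 2.78, adjusted *p* = 0.0800), and was called higher when DMD PROL replicate 4 or WT DIFF replicate 3 was left out. *MEF2A* matched with 224 ± 27.8 against 312 ± 43.2 CPM (95% interval −0.76 to −0.24), although all its DMD PROL libraries lay below all WT DIFF libraries. On the second duplicate of each sample alone it was called lower (log2 fold change −0.67, edgeR adjusted *p* = 1.4e-04). *ID2* matched with 159 ± 31.8 against 109.5 ± 16.7 CPM (95% interval 0.15 to 0.86) and was called higher without DMD PROL replicate 4 (log2 fold change 0.63, adjusted *p* = 0.00118). The lower regulator was *FST*, the secreted antagonist of myostatin. Its counts were 12, 0, 4 and 0 in DMD PROL and 64, 76, 50 and 98 in WT DIFF, or 2.42 ± 3.47 against 49.3 ± 14.5 CPM, a fall of 19.6-fold with a log2 fold change of −4.29 (95% interval −7.23 to −3.42, adjusted *p* = 2.1e-04). *FST* was at 6.01 CPM in WT PROL and 7.73 in DMD DIFF, and WT DIFF was the only group with a mean above 10 CPM. *IGFBP5*, a binding protein of insulin-like growth factors made by differentiating myoblasts, was undecided at 283, 193, 377 and 525 against 551, 411, 713 and 499.8 CPM, a log2 fold change of −0.68 (95% interval −1.25 to −0.25, adjusted *p* = 0.118). Replicate 4 was here the highest DMD PROL library, and without it the gene was called lower (−0.96, adjusted *p* = 0.0216). *TEAD4*, a partner of muscle promoters, and *SNAI2* were undecided with log2 fold changes of 0.51 and −0.88.

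The myogenic factors *MYF5*, *MYOD1* and *MYF6* fell below the filter but had more counts in DMD PROL than in WT DIFF. Summed over 4 libraries, *MYF5* had 30 against 0 counts in DMD PROL and WT DIFF, *MYOD1* 52 against 4 and *MYF6* 76 against 4. In the same order, DMD DIFF held 40, 16 and 22 counts of these genes and WT PROL 0, 8 and 8. *MYF5* was thus found in DMD cultures of both states. Against a floor of 3 counts for the WT DIFF group, *MYF5* was at least 10.4-fold higher, or 5.22-fold if each deposited count stands for 2, as all values in the table are even. Tested without a filter, where 395 of 3043 genes (13.0%) were called higher and 496 (16.3%) lower, these 3 genes were called higher (adjusted *p* = 0.00118, 6.9e-04 and 6.3e-06). So were the heavy chain *MYH2* (18 against 0 counts), the muscle ubiquitin ligase *TRIM63* (80 against 12), myostatin *MSTN* (44 against 6) and the glycerol phosphate enzyme *GPD1* (36 against 6). None of the 35 muscle genes below the filter was called lower, 27 had more counts in DMD PROL, 5 more in WT DIFF and 3 as many in each. Among those with 6 or more counts, *RYR1*, the calcium release channel, had 40 against 20, the slow heavy chain *MYH7* 28 against 16, the chaperone *UNC45B* 30 against 6, *ART3* 54 against 26 and *NCALD* 34 against 8 counts. *CASQ1*, *TCAP*, *BVES*, *TMOD4*, *CAV3*, *CACNG1*, *PDLIM3*, *TNNI3*, *FBP2* and *SMYD1* also had more in DMD PROL, *TNNC2* (4 against 8), *PLN* (4 against 10) and *CD9* (4 against 8) had more in WT DIFF and *HK2* was equal (6 against 6). Adjusted *p* for these was 0.0644 or more, and a difference was not detectable at this depth.

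Genes of excitation and calcium handling were few. Of 6 tested, 1 was called higher, 2 matched, 3 were undecided and none was lower. Over all genes tested these shares were 18.5%, 44.4%, 14.2% and 22.9%. *RCAN1*, an inhibitor of calcineurin that calcium signaling induces, stood at 475, 656, 468 and 441 CPM in DMD PROL and 49.2, 90.6, 59.3 and 61.8 in WT DIFF, 7.71-fold higher (a log2 fold change of 2.95 (95% interval 2.55 to 3.38, adjusted *p* = 2.3e-08)). The groups were far apart, and *RCAN1* was lower in WT DIFF than in WT PROL (181 CPM). *ATP2A2*, the calcium pump of slow muscle and most other cells, matched closely at 72.3, 71.7, 78.6 and 61.7 against 76.6, 80.4, 74.8 and 73.9 CPM, a log2 fold change of −0.12 (95% interval −0.42 to 0.17, adjusted *p* = 0.490). *CACNA2D1*, an accessory subunit of the voltage-gated calcium channel, matched at 102 ± 15.0 against 68.3 ± 14.8 CPM (a log2 fold change of 0.55 (95% interval 0.19 to 0.92, adjusted *p* = 0.0110)), well above WT PROL (28.2 CPM), and was called higher without replicate 1 of either group (log2 fold change 0.65 and 0.69). *SLN* (sarcolipin), which regulates the calcium pump, was undecided at 29.4, 65.3, 49.3 and 14.4 against 35.6, 19.0, 32.2 and 32.2 CPM (95% interval −0.62 to 1.06), since the DMD PROL libraries spread on both sides of the WT DIFF range. WT PROL had 0.858 CPM. The fast pump *ATP2A1* and the scaffold *HOMER1* were undecided at means under 13 CPM in each group.

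Of 8 dystrophin complex and other membrane genes tested, 2 were called higher, 1 lower, 3 matched and 2 were undecided. Over all genes tested these shares were 18.5%, 22.9%, 44.4% and 14.2%. The sarcoglycans, which form a membrane complex bound to dystrophin, went separate ways. *SGCA*, the muscle-specific α-sarcoglycan, stood at 98.0, 74.3, 141 and 98.5 CPM in DMD PROL and 38.3, 39.5, 52.9 and 45.7 in WT DIFF, higher in every library (a log2 fold change of 1.20 (95% interval 0.71 to 1.64, adjusted *p* = 6.4e-05)). *SGCD* (δ) matched at 78.4, 69.2, 77.5 and 126 against 60.2, 90.6, 68.4 and 133 CPM, a log2 fold change of −0.03 (95% interval −0.52 to 0.52, adjusted *p* = 0.931), with replicate 4 the highest library in each group. *SGCE* (ε), which most tissues make, was lower at 169, 179, 167 and 159 against 350.0, 428, 420.5 and 383 CPM, a log2 fold change of −1.25 (95% interval −1.47 to −1.03, adjusted *p* = 2.0e-08), and its level in DMD PROL was near that of WT PROL (155 CPM) and DMD DIFF (174). *SGCB* (β) was undecided at 13.3 against 11.8 CPM. *POPDC3*, a cAMP-binding membrane protein of striated muscle, was 12.6-fold higher, 68.6, 98.6, 85.7 and 81.4 against 4.10, 4.38, 9.03 and 8.06 CPM (a log2 fold change of 3.66 (95% interval 2.85 to 4.49, adjusted *p* = 5.2e-09)). Its level in WT DIFF did not differ by a call from WT PROL (5.29 CPM). *ITGB1* and the caveolar coat gene *CAV1*, both widely expressed, matched within 2-fold with 5147 ± 771 against 3415 ± 278 and 1596 ± 45.5 against 1206 ± 99.6 CPM (95% intervals 0.34 to 0.78 and 0.22 to 0.55), although every DMD PROL library was above every WT DIFF library. *ITGB1* was called higher without replicate 1 of either group.

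Metabolic genes of muscle were higher in 8 of 12, lower in 1, matched in 2 and undecided in 1. The shares over all genes tested were 18.5%, 22.9%, 44.4% and 14.2%. The median log2 fold change of the 12 was 0.92. The largest difference was that of *ENO3*, the muscle enolase of glycolysis, at 967, 916, 538 and 925 CPM in DMD PROL and 9.57, 8.77, 27.1 and 37.6 in WT DIFF. It was 39.1-fold higher (a log2 fold change of 5.29 (95% interval 4.46 to 6.52, adjusted *p* = 3.9e-05)), and WT PROL (195 CPM) was also above WT DIFF, as DMD PROL was above DMD DIFF (79.7 CPM). The muscle phosphoglycerate mutase *PGAM2* behaved otherwise: 439, 299.7, 353 and 227 against 68.4, 55.5, 55.5 and 79.3 CPM (a log2 fold change of 2.33 (95% interval 1.81 to 2.80, adjusted *p* = 5.9e-07)), with WT PROL at 19.2 and DMD DIFF at 411 CPM. *FITM1*, a lipid droplet gene of muscle, was 37.4 ± 5.27 against 2.03 ± 1.71 CPM (log2 fold change 4.12, adjusted *p* = 9.0e-07). The lactate dehydrogenase *LDHA* was 3841 ± 458 against 1569 ± 242 CPM (log2 fold change 1.27, adjusted *p* = 4.9e-08), and the glycolytic enzymes *GAPDH* and *TPI1* were higher by log2 fold changes of 0.95 and 0.67, the call of *TPI1* being lost on the second duplicate of each sample alone. *GYS1* (glycogen synthase, 0.88) and *FABP3* (a fatty acid-binding protein, 2.05) were higher too, and the call of *GYS1* was lost without DMD PROL replicate 1 or WT DIFF replicate 2. The phosphofructokinase of muscle *PFKM* matched at 36.8, 39.7, 48.1 and 36.8 against 36.9, 36.5, 29.7 and 37.6 CPM (a log2 fold change of 0.18 (95% interval −0.22 to 0.58, adjusted *p* = 0.487)), and *PGK1* at 1058 ± 166 against 754 ± 67.3 CPM (95% interval 0.23 to 0.69). *COX7A1*, the muscle and heart subunit of cytochrome c oxidase, was lower: 125, 149, 121 and 159 against 267, 210.5, 249 and 242 CPM without overlap, a log2 fold change of −0.83 (95% interval −1.09 to −0.58, adjusted *p* = 1.8e-05). It had risen from 105 CPM in WT PROL, and DMD DIFF stood at 139 CPM.

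The 13 matching genes differed in how they stood in cycling WT cells. Over all genes, 17.9% were called higher and 14.3% lower in WT DIFF than in WT PROL, and 8.36% higher and 9.87% lower in DMD PROL than in WT PROL. *TNNT1*, *CARP*, *CACNA2D1* and *SGCD* were called higher in WT DIFF than in WT PROL (log2 fold changes 3.77, 3.68, 1.28 and 0.92) and higher in DMD PROL than in WT PROL (4.30, 4.12, 1.85 and 0.90). *ATP2A2* and *ID2* were called lower in both (−0.72 and −1.27 in WT DIFF, −0.84 and −0.74 in DMD PROL). *CAV1* was called lower in WT DIFF alone (−0.69, against −0.30 in DMD PROL) and *TPM1* higher in DMD PROL alone (0.86, against 0.34 in WT DIFF), and whether these differ was not tested for either. *TPM2*, *MEF2A*, *ITGB1*, *PFKM* and *PGK1* were called in neither. Only *TPM2*, *ATP2A2*, *SGCD* and *PFKM* matched under every one of 18 settings. Scaling by library size alone kept 5 of the 13 as matches, *TPM2*, *MEF2A*, *ATP2A2*, *SGCD* and *PFKM*, with *ITGB1*, *CARP*, *CAV1*, *ID2*, *TNNT1*, *CACNA2D1* and *PGK1* called higher and *TPM1* undecided. *IGFBP5*, undecided in the main scaling, matched there.

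**Figure D4:**
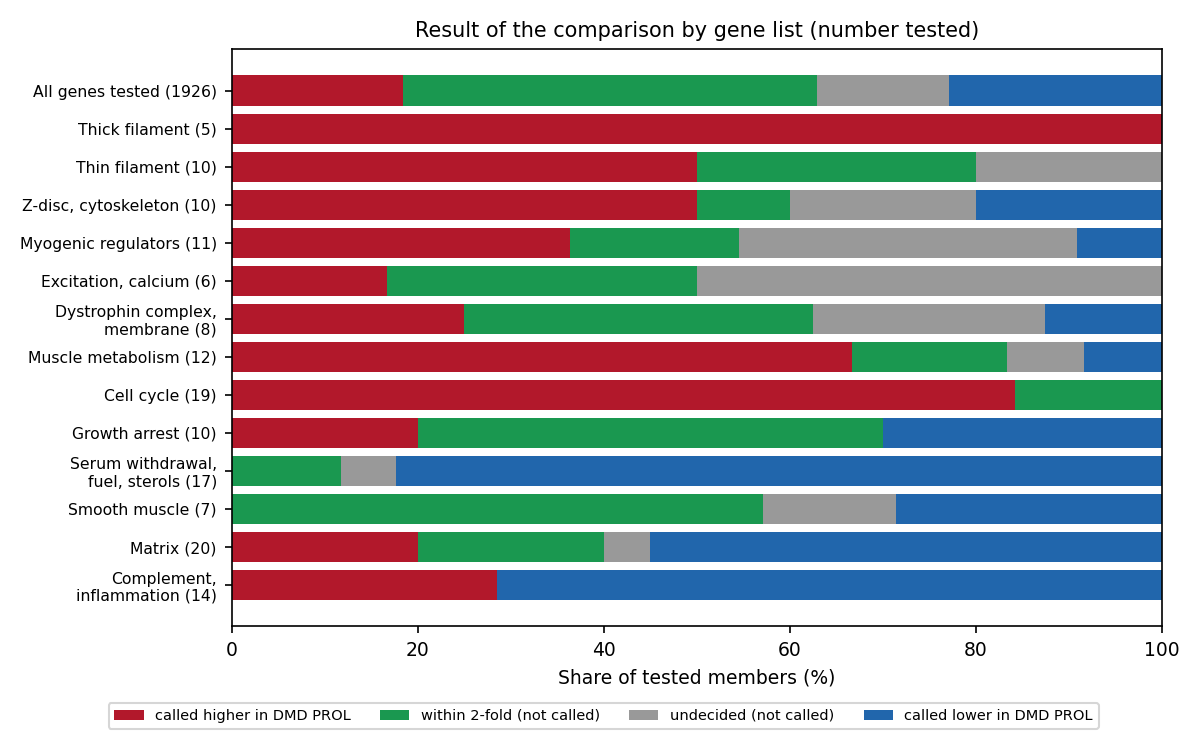
Share of tested members (horizontal axis, percent) called higher in DMD PROL (red), matching within 2-fold (green), undecided (grey) or called lower (blue) against WT DIFF, for all 1926 genes and for each list, with the number tested in parentheses. Red fills the bar of the thick filament and 16 of 19 parts of the cell cycle, while blue fills 14 of 17 parts of the serum withdrawal, fuel and sterol genes.

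The muscle levels above were measured in cultures whose cell cycle genes were high. RNA of whole cultures does not show whether the same cells held both. Of 19 tested cell cycle genes, 16 were called higher in DMD PROL than in WT DIFF, 3 matched and none was lower. Among all genes tested, 18.5% were called higher, 44.4% matched and 22.9% were lower. The median log2 fold change of the 19 was 2.74. Cyclin A2 (*CCNA2*), which drives DNA replication, stood at 247, 256, 205 and 245 CPM in DMD PROL and 5.47, 11.7, 15.5 and 9.40 in WT DIFF (a log2 fold change of 4.47 (95% interval 3.83 to 5.21, adjusted *p* = 3.0e-11)). The mitotic kinase *CDK1* was 240.3 ± 20.5 against 35.3 ± 7.06 CPM (log2 fold change 2.74, adjusted *p* = 2.2e-10), and topoisomerase IIα (*TOPOII* in the file, *TOP2A*) 735 ± 31.5 against 72.5 ± 16.7 (log2 fold change 3.32, adjusted *p* = 1.1e-11). No library of the groups overlapped in these genes. Chromatin proteins of dividing cells rose with them: *HMGB2* was 8368 ± 812 against 1073 ± 144 CPM (log2 fold change 2.94), *H2AFZ* 2.89 and *HMGB1* 1.49 on the same scale. The mitotic cyclin *CCNB1* (4.02) and the replication clamp *PCNA* (2.02) were higher as well. In WT PROL *CCNA2* was at 149.5, *CDK1* at 196 and *HMGB2* at 5513 CPM. *MKI67*, a common marker of cycling cells, matched at 407 ± 62.8 against 349 ± 35.9 CPM (a log2 fold change of 0.20 (95% interval −0.05 to 0.43, adjusted *p* = 0.139)), as did *CCND2* and *CKS1B*. *MKI67* was at 425 CPM in WT PROL and 369 in DMD DIFF.

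Of 10 growth arrest genes tested, 2 were called higher, 3 lower and 5 matched. These counts were near the shares of all genes tested, 18.5%, 22.9% and 44.4%. Cyclin G1 (*CCNG1*), a p53 target, was 1600.1 ± 55.6 against 2791 ± 204 CPM (log2 fold change −0.82, adjusted *p* = 2.0e-07), and the antiproliferative genes *BTG2* and *TOB1* were lower by log2 fold changes of −0.89 and −0.74. The call of *TOB1* was lost when scaling by library size alone (−0.52). *CDKN3*, a phosphatase of cyclin-dependent kinases that is itself made in cycling cells, was higher (2.40), as was *GADD45G* (1.12), whose call was lost on the second duplicate of each sample alone.

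Genes of the list named for serum withdrawal, fuel supply and sterol need were mostly lower in DMD PROL. Of 17 tested, 14 were called lower, 2 matched, 1 was undecided and none was higher, with a median log2 fold change of −2.36. Among all genes tested, 22.9% were called lower, 44.4% matched, 14.2% were undecided and 18.5% were higher. *SGK1*, a kinase induced by glucocorticoids, stood at 24.5, 21.8, 43.4 and 18.4 CPM in DMD PROL and 853, 783, 999.6 and 1049 in WT DIFF, 34.3-fold lower (a log2 fold change of −5.10 (95% interval −5.67 to −4.62, adjusted *p* = 1.1e-08)). The groups were widely apart, and WT PROL had 81.2 and DMD DIFF 20.6 CPM. *TXNIP*, which limits glucose uptake, was 19.3 ± 10.3 against 1022 ± 174 CPM (log2 fold change −5.74, adjusted *p* = 1.8e-06), and *PDK4*, which turns mitochondria from glucose to fat, 1.57 ± 1.90 against 116 ± 38.7 CPM (log2 fold change −6.17, adjusted *p* = 1.4e-06). Both were below WT DIFF in DMD DIFF too, at 83.6 and 2.90 CPM, though *TXNIP* stood there above its DMD PROL level. *IGF1*, a growth factor of muscle, was 2.21 ± 1.94 against 43.5 ± 17.2 CPM (log2 fold change −4.29, adjusted *p* = 6.4e-07). Sterol enzymes formed a block of lower genes, among them *CYP51* at 41.7, 65.3, 75.1 and 48.6 against 309, 336, 326 and 309 CPM (a log2 fold change of −2.49 (95% interval −2.85 to −2.19, adjusted *p* = 7.0e-10)). *SQLE* (−2.36) and *HMGCS1* (−2.36) were lower on the same scale. In these the DMD PROL level was near that of WT PROL, 61.0 CPM for *CYP51* and 76.0 for *SQLE*, and DMD DIFF stood at 215 and 177 CPM. *FASN* and *SCD*, enzymes of fatty acid synthesis, matched (95% intervals −0.73 to 0.27 and −0.90 to 0.38).

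**Figure D5:**
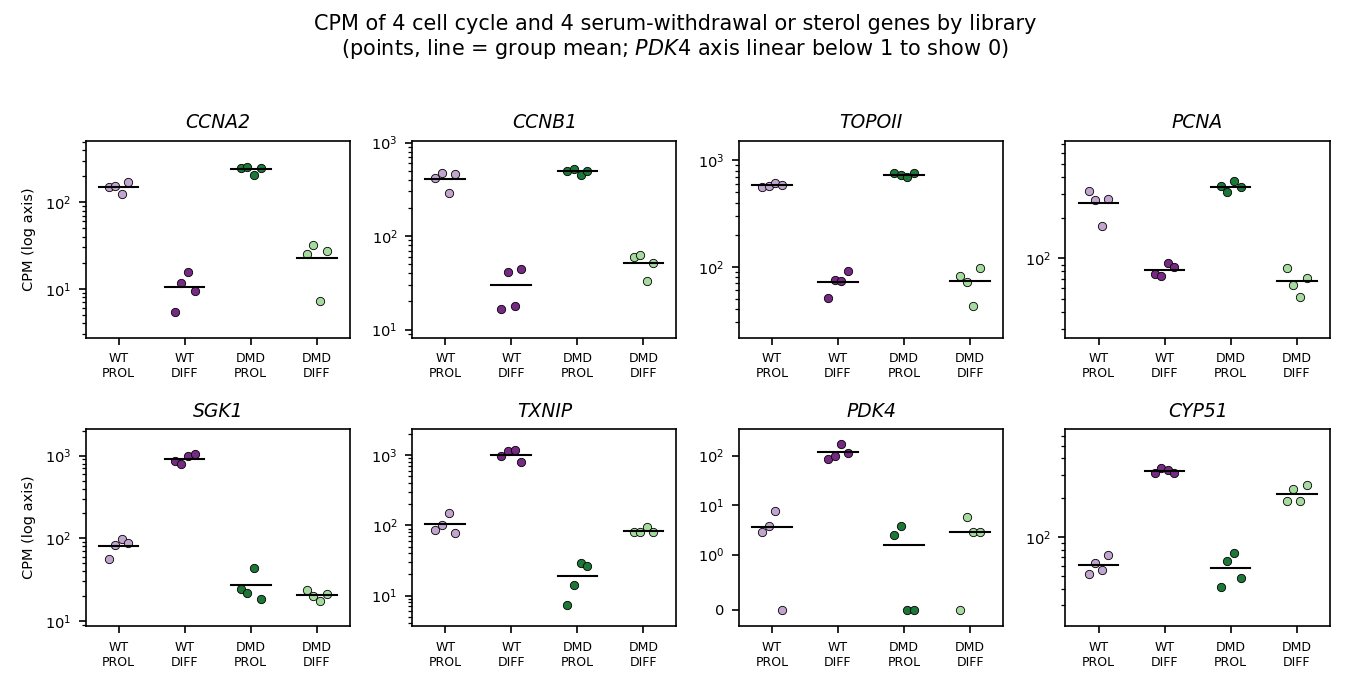
CPM (log axis, linear below 1 for *PDK4*) of 4 cell cycle genes and 4 serum withdrawal or sterol genes in each of the 16 libraries (points) with the group mean (line). The cell cycle genes are high in both PROL groups, *SGK1*, *TXNIP* and *PDK4* are high in WT DIFF alone, and *CYP51* is high in both DIFF groups.

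Most matrix, fibroblast and complement genes were lower in DMD PROL. Of 20 tested matrix genes 11 were called lower, 4 higher, 4 matched and 1 was undecided. All 7 fibroblast markers tested, 5 of which are also matrix genes, were called lower. Among all genes tested, 22.9% were called lower, 18.5% higher, 44.4% matched and 14.2% were undecided. The count of matrix genes called higher was thus near the share of all genes. Decorin (*DCN*), a collagen-binding proteoglycan, stood at 175, 281, 227 and 223 CPM in DMD PROL and 6587, 8116, 6949 and 6958 in WT DIFF, 32.1-fold lower (a log2 fold change of −5.01 (95% interval −5.27 to −4.76, adjusted *p* = 5.4e-14)). *COL3A1*, *COL1A2*, *FBN1*, *LOX* and *MMP2*, which build, cross-link or cut fibers of the matrix, were lower by log2 fold changes of −2.68, −1.30, −3.13, −1.98 and −2.52. *MFAP5* (−4.53), *PI16* (−7.76) and *POSTN* (−5.02) were lower on the same scale. Against this direction, tenascin C (*TNC*) was 133 ± 16.7 against 7.06 ± 3.23 CPM (log2 fold change 4.18, adjusted *p* = 4.1e-10), and *SPP1* (osteopontin, 3.46), *MMP1* (3.41) and *VCAN* (2.14) were also higher. In all 4 of these the WT PROL mean was above the WT DIFF mean.

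Complement and inflammatory genes were lower in 10 of 14 and higher in 4, where 22.9% of all genes tested were lower and 18.5% higher. *C4* was 4.62 ± 1.62 against 396 ± 71.5 CPM (log2 fold change −6.41, adjusted *p* = 2.3e-13), *C2* −5.96, the adhesion molecule *VCAM1* −4.84, *CD55* −4.92, *CXCL12* −3.61 and *NFKBIA* −1.33 on the log2 scale. The chemokine *IL8* (5.80), the prostaglandin enzyme *PTGS2* (3.26), *IL18* (2.49) and *CCL2* (1.09) were higher. *VCAM1*, which is also a satellite cell marker, stood at 17.1 CPM in DMD PROL, 484 in WT DIFF and 194 in WT PROL. The receptor *MET*, a marker of activated satellite cells, moved the other way, at 56.4, 66.6, 38.7 and 45.9 CPM in DMD PROL and 2.73, 1.46, 3.87 and 1.34 in WT DIFF (a log2 fold change of 4.38 (95% interval 3.00 to 5.61, adjusted *p* = 2.3e-08)).

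Of 7 smooth muscle genes tested, 4 matched, 2 were called lower and 1 was undecided. Among all genes tested, 44.4% matched, 22.9% were called lower and 14.2% were undecided. *ACTA2*, smooth muscle actin, was 834 ± 72.2 against 989.7 ± 411 CPM (95% interval −0.62 to 0.25), *TAGLN* 1304 ± 222 against 1164 ± 423 (95% interval −0.22 to 0.60). *CNN1* and *MYL9* were called lower (log2 fold changes −2.81 and −1.08, adjusted *p* = 0.00896 and 0.0227), and the call of *MYL9* was lost when DMD PROL replicate 1 or 2 or WT DIFF replicate 4 was left out. The undecided gene was *SMTN* (smoothelin), at 51.3 ± 12.0 against 24.8 ± 17.0 CPM (log2 fold change 1.02, 95% interval 0.32 to 2.52, adjusted *p* = 0.139). Of other cell markers tested, *PECAM1* (−4.30), *ERG* (−1.44), *CD14* (−0.67), *RBP4* (−2.35) and *PPARG* (−1.43) were lower, while *CIDEA*, a lipid droplet gene (47.9 against 16.7 CPM), and the growth cone gene *GAP43* (4.45) were higher. The calls of *CD14* and *PPARG* were lost when single libraries were left out, those of *CD14* without replicate 1 of either group and those of *PPARG* without any of 5 libraries. The 1 pericyte marker tested was undecided.

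By size, the 10 largest increases among calls whose groups did not overlap and whose higher group averaged 20 CPM or more were *CLGN*, *IL8*, *C14H10orf116*, *ENO3*, *C1QTNF3*, *AWN*, *CCNA2*, *GAP43*, *MET* and *ASF1B*, with log2 fold changes from 5.91 to 4.23. *CLGN*, a chaperone of the endoplasmic reticulum, had 44, 46, 40 and 34 counts in DMD PROL and 2, 0, 0 and 0 in WT DIFF, and *ASF1B*, a histone chaperone of replication, 60, 42, 62 and 54 against 2, 2, 4 and 2. *ENO3* was the only muscle gene among them. *AWN*, which encodes a spermadhesin, ranged from 17.6 to 522 CPM within DMD PROL, and its call (adjusted *p* = 0.0332) was lost without any 1 of 6 libraries. The 10 largest decreases were *PI16*, *CCL19*, *C4*, *PTX3*, *PDK4*, *NPY1R*, *CD302*, *C2*, *FBP1* and *TXNIP*, from −7.76 to −5.74, and held no muscle gene. The pentraxin *PTX3* was highest among them in WT DIFF, at 2489.9, 1055, 1199.5 and 1149 CPM against 18.4, 10.2, 22.3 and 23.6 in DMD PROL.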

How the data were processed

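The authors made 3′ libraries with unique molecular identifiers from 25 ng of total RNA. They removed duplicate molecules with UMI-tools, aligned reads to susScr3 with STAR 2.7.10b and counted genes with its GeneCounts mode. The deposited values are raw counts per gene, without normalization, in 3875 genes, of which 608 had none. The annotation and strand setting are not given in the sources used here. All 124000 values are even. The 2 duplicates of each sample, whose correlation was 0.965 to 0.979, were added.

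Tests used edgeR 4.0.16 under R 4.3.3 (filterByExpr with minimum count 10 and total 15, TMM, robust quasi-likelihood *F* test). Intervals came from limma 3.58.1 (voom). CPM used TMM factors over 16 libraries. Methods were tested on simulated data. Deviations from group means of same-numbered DMD PROL and WT DIFF samples correlated by −0.0300 to 0.0207, so numbers do not pair them. Those of WT DIFF and WT PROL, which the labels tie to the same animals, correlated by 0.0985 to 0.174, and the calls between them given in the text come from the fit without the animal.

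The comparison, its members and the gene lists were chosen with earlier results of these data known. Older symbols in the table (*MLC2V*, *FHL1C*, *CARP* and others) were matched through RefSeq synonyms after the table was seen. Named genes are, per list and direction, the 6 calls of smallest *p*, every matching muscle gene, undecided ones with 20 CPM, those below the filter with 6 counts and the 10 largest changes per direction. *CCNB1*, *PCNA*, *MKI67*, *FASN*, *SCD*, *TXNIP*, *ACTA2*, *TAGLN*, *GYS1*, *FABP3*, *MYOG*, *SGCB*, *SNAI2*, *CSRP3*, *XIRP1*, *ATP2A1*, *HOMER1*, *CCND2*, *CKS1B* and *SMTN* were added after their values were seen. Of genes this rule names, 2 are not reported here, though they stay in the fits and counts. Alternatives were DESeq2 1.42.0, other scaling, filters, fits and intervals, single duplicates, halved counts and leaving out each library.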

Additional observations from a re-analysis of the deposited data

Results flagged for a closer look

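In 12 of 191 groups of 4 values checked, 1 library lay far from the other 3 by Dixon's criterion, which chance flags in about 1 of 20 groups. Library DMD PROL replicate 4 held 20.4% *RN18S* counts against 7.63% to 8.66% in the other 3, and had a normalization factor of 0.915 against 1.05 to 1.06. The same library was low in *TNNC1*, the slow troponin C, with 48.6 CPM against 87.1 to 90.4, and high in *SGCD* (δ-sarcoglycan) with 126 CPM against 69.2 to 78.4. Other DMD PROL libraries stood apart in *RCAN1* (replicate 2, 656 CPM against 441 to 475), *ENO3* (replicate 3, 538 CPM against 916 to 967), *NFKBIA* (replicate 1, 68.6 CPM against 54.0 to 56.4) and *ASF1B* (replicate 2, 26.9 CPM against 35.4 to 36.8). In WT DIFF, replicate 1 was low in the collagen cross-linker *LOX* (1176 CPM against 1615 to 1676) and high in *PTX3* (2489.9 CPM against 1055 to 1199.5), and replicate 3 was high in *MFAP5* (868 CPM against 689 to 706) and low in *PFKM* (29.7 CPM against 36.5 to 37.6). The calls or matches of these genes held in every alternative, including those that leave these libraries out.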

How the results depend on the processing

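Over 19 alternatives the count of genes called ran from 656 (first duplicate alone) to 891 (no filter), beside 797. Leaving out 1 library gave 773 to 812 calls, 29 to 34 muscle genes higher and 5 to 6 lower, 10 to 15 matching and a muscle median log2 fold change of 0.64 to 0.82. That median was 0.90 by library size alone, 0.89 without a filter and 0.78 in the fit of 16 libraries. Matching muscle genes fell from 13 to 5 with a 1.5-fold margin, which is narrower by construction, and to 6 by library size alone. The latter gave 194 higher and 564 lower calls between WT DIFF and WT PROL, against 343 and 275; the cause was not tested. With the replicate number as a block, 781 genes were called between DMD PROL and WT DIFF, and *IGFBP5* was called lower (−0.74, edgeR adjusted *p* = 0.0164) while *ACTN2* (0.65, adjusted *p* = 0.0784) and *MYL9* (−1.01, adjusted *p* = 0.0604) lost their calls. These samples share only a number, not an animal. Between WT DIFF and WT PROL, where numbers mark the animal, the block changed none of the calls given. Halving all counts, chosen after seeing that all were even, gave 731 calls. Of 112 named genes, 92 kept direction and side of the threshold in every alternative that gave them a value, and none reversed. *MYH1*, for example, had no value on a single duplicate or under the stricter filter. *MYOG*, *GYS1* and other genes added after their values were seen are not among the 112. Depth limits the 35 muscle genes below the filter.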
